A study of Mus musculus with 8 samples.

Results

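The Nr4a nuclear receptors Nr4a1, Nr4a2 and Nr4a3 and the nuclear protein Csrnp1 were followed across colon epithelial libraries of 4 mouse genotypes. These 4 genes, taken by symbol from 24346 gene symbols, were chosen by their mutant and wild-type FPKM in these same libraries, from differences already known. Their differences from wild-type are therefore a description with no test, and tests are given only between mutants, between sexes and for other genes. The lists of other genes were also drawn up with earlier results known, so their tests against wild-type are no independent support. RNA was sequenced from epithelial cells of the colon of untreated C57BL/6J mice, in 8 libraries, with 1 male and 1 female library for each genotype. The genotypes were wild-type, St6galnac6-/- (a sialyltransferase gene), B3gnt7-/- (an N-acetylglucosaminyltransferase gene) and B3galt5D116A, which carries the D116A substitution in a galactosyltransferase. The labels give no age, no cell isolation method, no description of the deleted parts, and no word on whether a library came from 1 mouse or a pool. Each p-value therefore reflects no more than the variation among these 8 libraries.

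The Nr4a genes encode orphan nuclear receptors whose activity is set mainly by how much of the protein is made, since no classical ligand switches them on. They are immediate early genes: cAMP, calcium and growth factor signals induce their transcripts within minutes, without new protein synthesis, through factors such as CREB and SRF. The receptors bind DNA as monomers at the NBRE element, as dimers of their own kind, and, for Nr4a1 and Nr4a2, as heterodimers with retinoid X receptors. Csrnp1 encodes a cysteine- and serine-rich nuclear protein with transcriptional activity, first known in human cells as a transcript induced by AXIN1.

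The members lie on different chromosomes of mm10, in the GENCODE M21 annotation. Nr4a1 spans chr15:101254269-101274795 on the plus strand, Nr4a2 chr2:57106830-57124003 on the minus strand, Nr4a3 chr4:48045153-48086447 on the plus strand and Csrnp1 chr9:119971163-119984658 on the minus strand. The Nr4a genes overlapped 0 other annotated genes. Csrnp1 overlapped 2, the chemokine receptor gene Cx3cr1, which was between 0.0214 and 0.0957 FPKM in all 8 libraries, and 1700019L13Rik, which was not analysed here. Whether the authors' counting used strand is not given in the sources used here.

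Because all 4 members were lower in the same libraries, the DNA before RefSeq transcription starts of each is shown. For each RefSeq start (build GRCm38.p6) the 250 bases upstream were searched on both strands for TGACG, the core of the cAMP response element (CRE) that CREB binds. Capitals mark each TGACG or its reverse complement CGTCA, and each sequence runs 5′ to 3′ toward the start. The windows are chr15:101266596-101266845 (plus) for Nr4a1, chr2:57124004-57124253 (minus) for Nr4a2, chr4:48045055-48045304 (plus) for Nr4a3 and chr9:119984444-119984693 (minus) for the start of transcript Csrnp1-201.
Nr4a1: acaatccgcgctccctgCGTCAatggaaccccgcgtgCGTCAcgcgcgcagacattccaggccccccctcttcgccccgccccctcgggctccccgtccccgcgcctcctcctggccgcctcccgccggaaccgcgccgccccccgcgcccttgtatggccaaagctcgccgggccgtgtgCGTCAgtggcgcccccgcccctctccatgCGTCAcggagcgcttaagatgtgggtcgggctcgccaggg
Nr4a2: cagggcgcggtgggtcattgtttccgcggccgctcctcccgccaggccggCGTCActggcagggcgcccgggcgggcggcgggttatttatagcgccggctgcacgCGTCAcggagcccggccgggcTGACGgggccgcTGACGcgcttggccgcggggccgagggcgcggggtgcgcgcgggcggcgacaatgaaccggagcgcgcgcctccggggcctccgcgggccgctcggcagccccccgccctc
Nr4a3: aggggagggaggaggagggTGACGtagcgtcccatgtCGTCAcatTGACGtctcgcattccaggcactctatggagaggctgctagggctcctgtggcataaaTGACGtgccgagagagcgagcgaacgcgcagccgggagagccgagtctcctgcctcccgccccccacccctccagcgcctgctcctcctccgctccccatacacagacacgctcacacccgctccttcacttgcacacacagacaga
Csrnp1: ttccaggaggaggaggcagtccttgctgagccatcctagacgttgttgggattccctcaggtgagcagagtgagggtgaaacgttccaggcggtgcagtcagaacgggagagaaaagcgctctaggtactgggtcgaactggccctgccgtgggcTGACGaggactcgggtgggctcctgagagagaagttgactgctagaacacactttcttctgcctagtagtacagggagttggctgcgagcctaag

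Each of the 3 Nr4a windows held 4 CRE cores. Of 32851 windows of the same length before the starts of 27025 genes, 45 (0.137%) held 4 or more. The Nr4a windows were rich in G and C (74.4% for Nr4a1, 80.0% for Nr4a2 and 63.6% for Nr4a3, against a median of 52.4% over all windows), and among the 9178 windows with at least 60% G and C the share with 4 or more cores was 0.370%. The 4 windows of Csrnp1 held 1, 1, 2 and 1 cores. One core or more was present in 17.8% of all windows and 2 or more in 3.90%, and in 50.0% and 26.8% of 56 windows of other immediate early genes. Among those 56, 2 (3.57%) held 3 or more, against 0.688% of all windows, and 0 held 4 or more. The full palindrome TGACGTCA, which contains the core on both strands and is present in 1.55% of all windows, was in 0 of the 7 members' windows, as were the NBRE AAAGGTCA (1.34% of all windows) and the CArG box that SRF binds (1.47%). The AP-1 site TGANTCA (6.75% of all windows) matched only at 1 Csrnp1 start, with 2 matches. Some windows lie within the GENCODE span of their gene, which has other starts further upstream. All 250 bases of the Nr4a1 window did, as did 152 of Nr4a3, with the core at -147, and 215 of the Csrnp1 window shown, with its core, but 0 of Nr4a2. A match describes these letters and does not show binding.

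**Figure D1:**
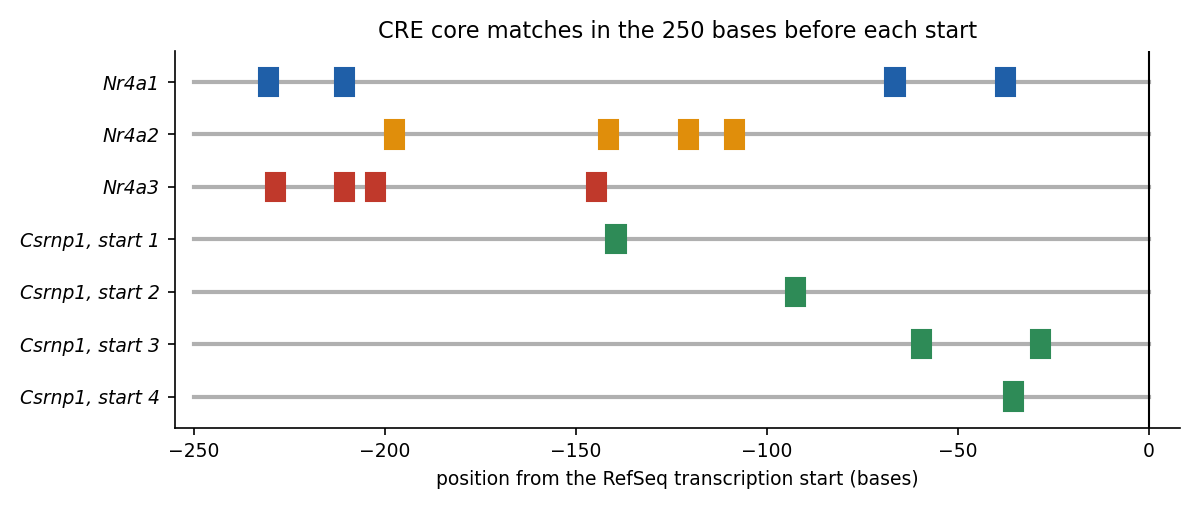
CRE cores in the 250 bases before each RefSeq start of the members. The x axis is the position from the start in bases and each box is 1 TGACG or CGTCA. The Nr4a genes have 4 boxes each, at -233, -213, -69 and -40 for Nr4a1, -200, -144, -123 and -111 for Nr4a2 and -231, -213, -205 and -147 for Nr4a3, while the 4 Csrnp1 starts have 1 or 2.

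Expression was given as FPKM, fragments per kilobase of transcript scaled to mapped fragments, so levels can be set side by side between genes. The epithelial markers were high in every library, with Epcam between 864 and 953 FPKM and the keratin Krt8 between 3747 and 5508 FPKM. Read counts were not given. Relative depth, read from the steps between low values, was 1 and 1.05 in the wild-type male and female and 1.18 to 1.46 in the mutants, so the wild-type libraries were the shallowest. The part of depth in the results below was not tested. St6galnac6 was at 63.2% of the wild-type mean in St6galnac6-/- and B3gnt7 at 52.0% in B3gnt7-/-, the latter a mean of unlike libraries, at 33.98% in the male and 69.96% in the female. Neither difference passed limma's test adjusted over all genes (adjusted p = 0.340 for St6galnac6 and 0.657 for B3gnt7). B3galt5D116A is a substitution, which a transcript level does not check. The B3gnt7-/- female library stood apart in 2 ways. Its summed fibroblast and smooth muscle markers were at 45.2 FPKM against 12.01 to 16.5 FPKM in the other 7 libraries, led by the matrix protein Dcn at 18.9 FPKM against 2.101 to 3.35 FPKM. Its summed heat shock chaperones were at 2360 FPKM against 3751 to 6396 FPKM.

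Nr4a1, the receptor known for its induction in many cell types by mitogens and stress, was by far the most abundant member. It was at 355 FPKM in the wild-type male and 288 FPKM in the wild-type female library. The mutant values, male first, were 123 and 111 FPKM (St6galnac6-/-), 124 and 108 FPKM (B3galt5D116A), and 152 and 108 FPKM (B3gnt7-/-). Both wild-type libraries lay above all 6 mutant libraries, whose highest value, in the B3gnt7-/- male, was still exceeded 1.89-fold by the lower wild-type value. Among all symbols of a library ordered by FPKM, Nr4a1 ranked 279 and 327 in wild-type and between 613 and 958 in the mutants. The group means were 321 ± 47.6 FPKM for wild-type, 117 ± 8.69 FPKM for St6galnac6-/-, 116.05 ± 11.8 FPKM for B3galt5D116A and 129.98 ± 31.2 FPKM for B3gnt7-/- (SD, n = 2 each), which put the mutant means at 36.3%, 36.1% and 40.4% of wild-type.

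Csrnp1 followed Nr4a1 at a lower level. Wild-type had 39.1 FPKM in the male and 34.1 FPKM in the female. The mutant values, male first, were 12.3 and 10.9 FPKM (St6galnac6-/-), 12.4 and 14.002 FPKM (B3galt5D116A), and 14.3 and 11.2 FPKM (B3gnt7-/-). The groups did not overlap, with 2.39-fold between the lowest wild-type and the highest mutant value. The ratio of Nr4a1 to Csrnp1 was 8.44 and 9.09 in wild-type and between 7.69 and 10.6 in the mutants, ranges that overlap, so both levels were lower by about the same factor.

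Nr4a3, which in many tissues is induced along with Nr4a1, had the largest relative difference of the 4. Wild-type had 8.51 FPKM in the male and 6.66 FPKM in the female. The mutant values, male first, were 0.935 and 0.651 FPKM (St6galnac6-/-), 0.884 and 1.40 FPKM (B3galt5D116A), and 1.58 and 1.05 FPKM (B3gnt7-/-). The lower wild-type value was 4.22-fold the highest mutant value, and the wild-type mean was 9.57-fold, 6.64-fold and 5.78-fold the means of St6galnac6-/-, B3galt5D116A and B3gnt7-/-. In the mutants Nr4a3 was near 1 FPKM, and its mutant values spread over 2.43-fold, the widest of the members. The ratio of Nr4a1 to Nr4a3 was 41.7 and 43.2 in wild-type and 77.0 to 170 in the mutants.

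Nr4a2, known for its role in dopamine neurons and also an immediate early gene, had the smallest difference. Wild-type had 7.001 FPKM in the male and 6.45 FPKM in the female. The mutant values, male first, were 4.39 and 5.22 FPKM (St6galnac6-/-), 4.03 and 5.55 FPKM (B3galt5D116A), and 4.82 and 3.63 FPKM (B3gnt7-/-). Wild-type again lay above all mutant libraries, but by only 1.16-fold between the nearest values. The mutant means were 71.4%, 71.2% and 62.8% of wild-type. In wild-type Nr4a2 and Nr4a3 were at similar levels (ratio 0.822 and 0.969), and in the mutants Nr4a2 was 3.05-fold to 8.02-fold the level of Nr4a3. Nr4a1 made up 93.9% to 96.2% of the summed FPKM of the 3 receptors in every library, the Nr4a2 share was 1.89% and 2.15% in wild-type against 3.04% to 4.84% in the mutants, and the Nr4a3 share 2.297% and 2.21% against 0.559% to 1.22%.

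All 4 members thus had both wild-type libraries above all 6 mutant libraries, which held for 8.32% of the 11537 genes tested (mean of at least 1 FPKM, which all members passed) and nothing is read from the members' count, since they were proposed on these contrasts. The reverse order held for 7.23%. The 3 mutants share the same 2 wild-type libraries, so they are not independent of each other. In bulk RNA, fewer cells of a type and less RNA per cell cannot be told apart.

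**Figure D2:**
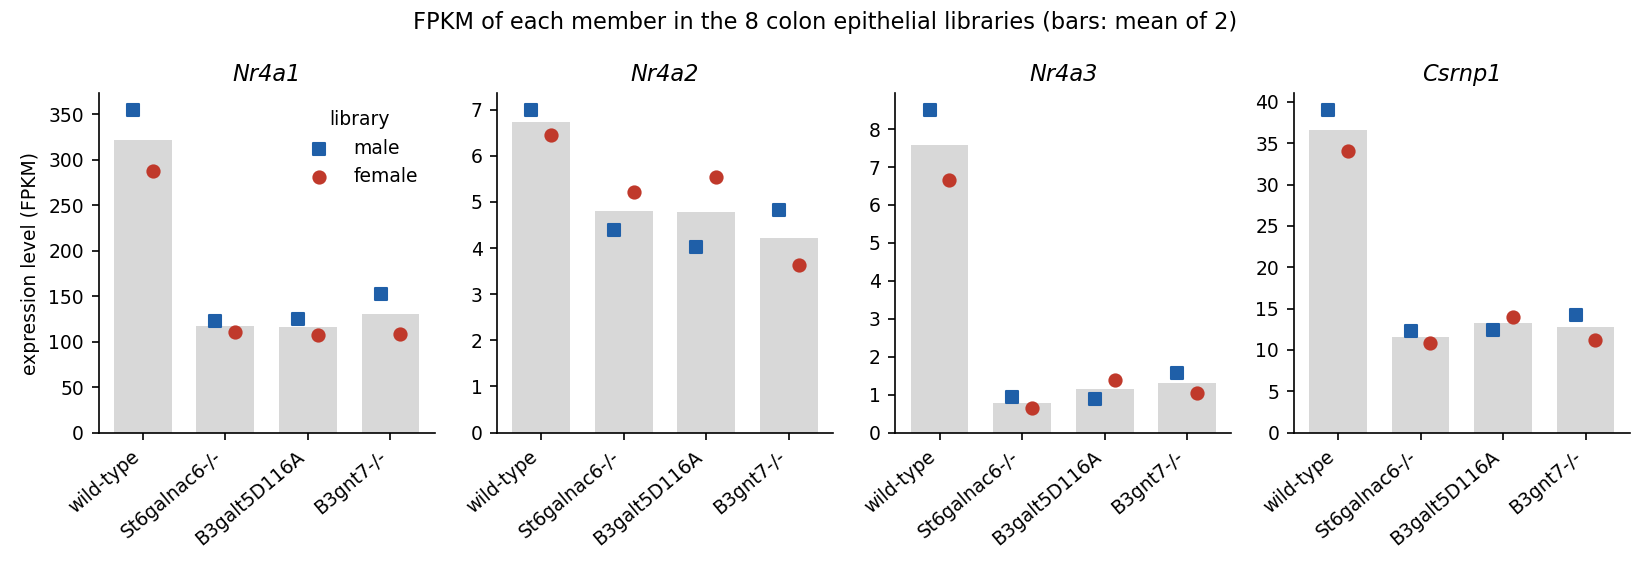
FPKM of each member by genotype. Squares are male and circles female libraries, and bars are the mean of both, with a linear axis from 0 in each panel. In each panel the 2 wild-type points lie above all 6 mutant points, by a wide gap for Nr4a1, Nr4a3 and Csrnp1 and by 1.16-fold for Nr4a2.

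On the log2(FPKM + 1) scale, which understates differences of genes at low FPKM, the difference from wild-type in St6galnac6-/-, B3galt5D116A and B3gnt7-/- was -1.45, -1.46 and -1.31 for Nr4a1 (SE 0.13 each). For Csrnp1 it was -1.58, -1.40 and -1.46 (SE 0.14). For Nr4a3 it was -2.26, -2.01 and -1.89 (SE 0.22), and for Nr4a2 -0.42, -0.43 and -0.57 (SE 0.19). The median over all genes tested lay between -0.01 and 0.003 in these contrasts. Without the B3gnt7-/- female library the B3gnt7-/- difference was -1.18 for Nr4a1, -1.33 for Csrnp1, -1.76 for Nr4a3 and -0.33 for Nr4a2. Nr4a2 in B3galt5D116A was -0.20 without the male and -0.66 without the female library of that genotype, and in B3gnt7-/- it was -0.82 without the male.

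The members were then compared between the mutants, a contrast that does not hold wild-type. Of the 12 differences (4 genes in 3 pairs), 0 passed limma's test adjusted over all genes. Over all genes, 0.026% (St6galnac6-/- against B3galt5D116A), 0.0433% (St6galnac6-/- against B3gnt7-/-) and 0.00867% (B3galt5D116A against B3gnt7-/-) were called so. Of the 12 differences 0 had an unadjusted p under 0.05 either, where 3.51%, 3.81% and 4.2% of all genes passed in the same order. The largest was Nr4a3 in St6galnac6-/- minus B3gnt7-/-, at log2 -0.36 with a 95% interval from -0.88 to 0.15 (limma adjusted p = 1). The adjusted p of the 12 ran from 0.771 to 1. For Nr4a1 the intervals reached from -0.30 to 0.32 for St6galnac6-/- minus B3galt5D116A, from -0.44 to 0.17 for St6galnac6-/- minus B3gnt7-/-, and from -0.45 to 0.16 for B3galt5D116A minus B3gnt7-/-. For Csrnp1 they reached from -0.51 to 0.16, from -0.46 to 0.21 and from -0.28 to 0.39 in the same order, and for Nr4a2 from -0.44 to 0.46, from -0.29 to 0.61 and from -0.31 to 0.59. With 2 libraries a genotype, differences between mutants inside these 95% intervals were not excluded, and the order of the mutants for any member was not resolved.

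Sex did not enter the choice of the members. Nr4a1 was higher in the male than in the female library of 4 of 4 genotypes, by 1.11-fold to 1.41-fold. Its male minus female difference was log2 0.29 (95% interval 0.07 to 0.50), with an unadjusted p of 0.0164 and a limma adjusted p = 0.9998 over all genes, so it did not pass, while 0.052% of all genes did. Csrnp1 and Nr4a3 were each higher in the male library in 3 of 4 genotypes, the exception being B3galt5D116A, and Nr4a2 in 2 of 4. Their differences were log2 0.13 (-0.11 to 0.36), 0.13 (-0.23 to 0.50) and -0.04 (-0.36 to 0.28), each with limma adjusted p = 0.9998. In wild-type and in B3gnt7-/- all 4 members were higher in the male library. The other immediate early genes introduced below had a median male minus female difference of log2 0.15, against 0.01 over all genes, with 48 of 53 positive. Of these 53, limma called 0, with 3 higher and 0 lower at an unadjusted p under 0.05, where 1.66% of all genes passed. By genotype, 43 of the 53 (81.1%) were higher in the male in wild-type, 36 (67.9%) in St6galnac6-/-, 40 (75.5%) in B3gnt7-/- and 24 (45.3%) in B3galt5D116A. Over all genes tested the shares were 52.3%, 49.4%, 52.3% and 50.5% in the same order. Each of these counts compares 1 male with 1 female library.

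**Figure D3:**
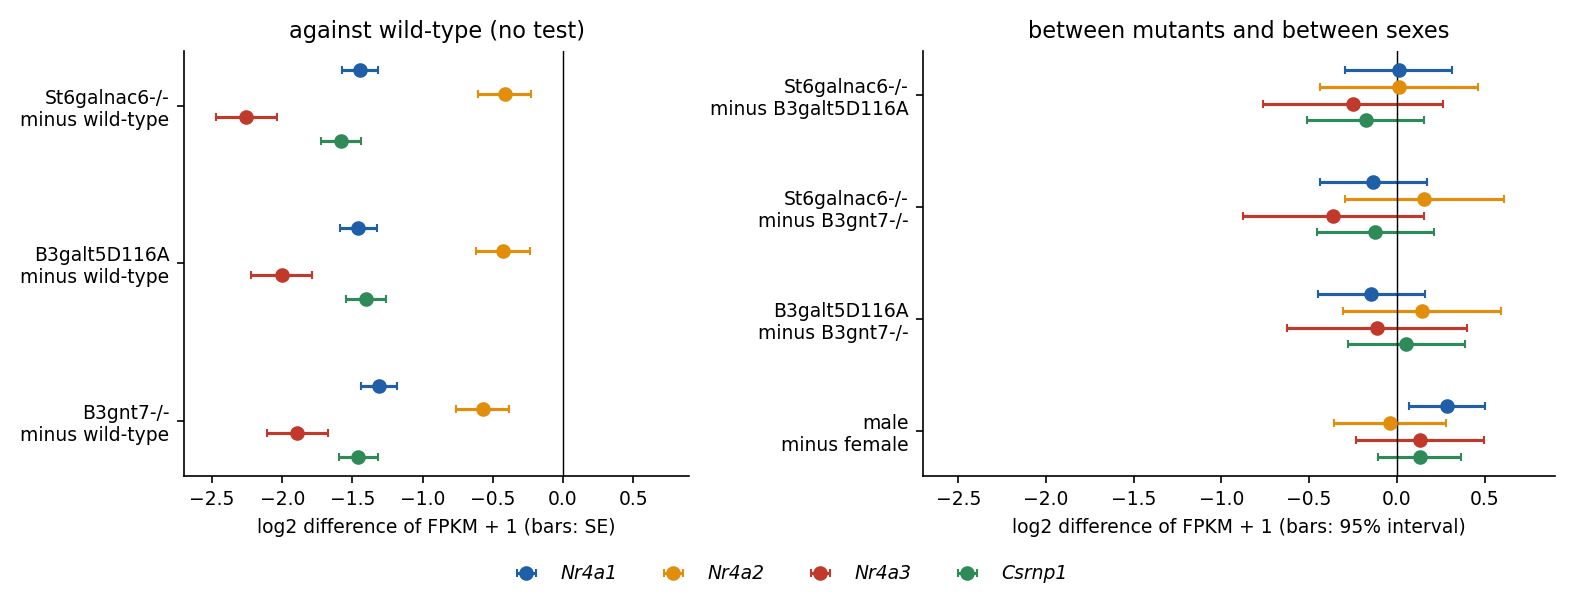
Differences of the members on the log2(FPKM + 1) scale. On the left, each mutant minus wild-type with SE bars lies below 0 for every member, between -2.26 and -0.42. On the right, differences between mutants and between sexes have 95% intervals that include 0, apart from Nr4a1 in male minus female (0.07 to 0.50).

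For each member the genes whose profile over the 8 libraries was most alike were found, by the root mean square (RMS) difference between the deviations of the genes from their own means in log2(FPKM + 1). This measure counts the size as well as the shape of a profile, and 11536 genes were compared with each member. The members were chosen by their wild-type and mutant values in these libraries, so their nearness to each other follows in part from that choice. The gene nearest to Nr4a1 was Csrnp1 and the gene nearest to Csrnp1 was Nr4a1 (RMS 0.14). For Nr4a3 the 2 nearest were Csrnp1 (0.27) and Nr4a1 (0.33). Nr4a2 was farther from the other members (RMS 0.46 to Nr4a1), since its differences were smaller. Among the 11536 genes it ranked 219th in the order of Nr4a1, 169th in that of Csrnp1 and 210th in that of Nr4a3. In the order of Nr4a2 itself, Nr4a1 was 10791st.

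After the members, the genes nearest to Nr4a1 were the stress-induced transcription factor Atf3 (RMS 0.17), the matricellular protein thrombospondin Thbs1 (0.17), the metalloproteinase inhibitor Timp3 (0.18) and the vasoconstrictor peptide gene Edn1 (0.19). Those nearest to Csrnp1 were Atf3 (0.18), Edn1 (0.21), Timp3 (0.22) and the claudin Cldn4 (0.23), and those nearest to Nr4a3 were the chemokine Cxcl16 (0.35), Atf3 (0.37), Edn1 (0.41) and Cldn4 (0.43). Edn1 was at 281 and 192 FPKM for wild-type and 86.3 to 137 FPKM in the mutants. Cxcl16 was at 21.2 and 13.02 FPKM for wild-type and 3.20 to 7.63 FPKM in the mutants. Thbs1 was at 298 and 254 FPKM against 94.0 to 142 FPKM. The genes nearest to Nr4a2 were the cytokine gene Tnfsf15 (0.10), the F-box gene Fbxo33 (0.10), the RNA-binding protein gene Khdrbs3 (0.10) and Gm5801 (0.10).

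**Figure D4:**
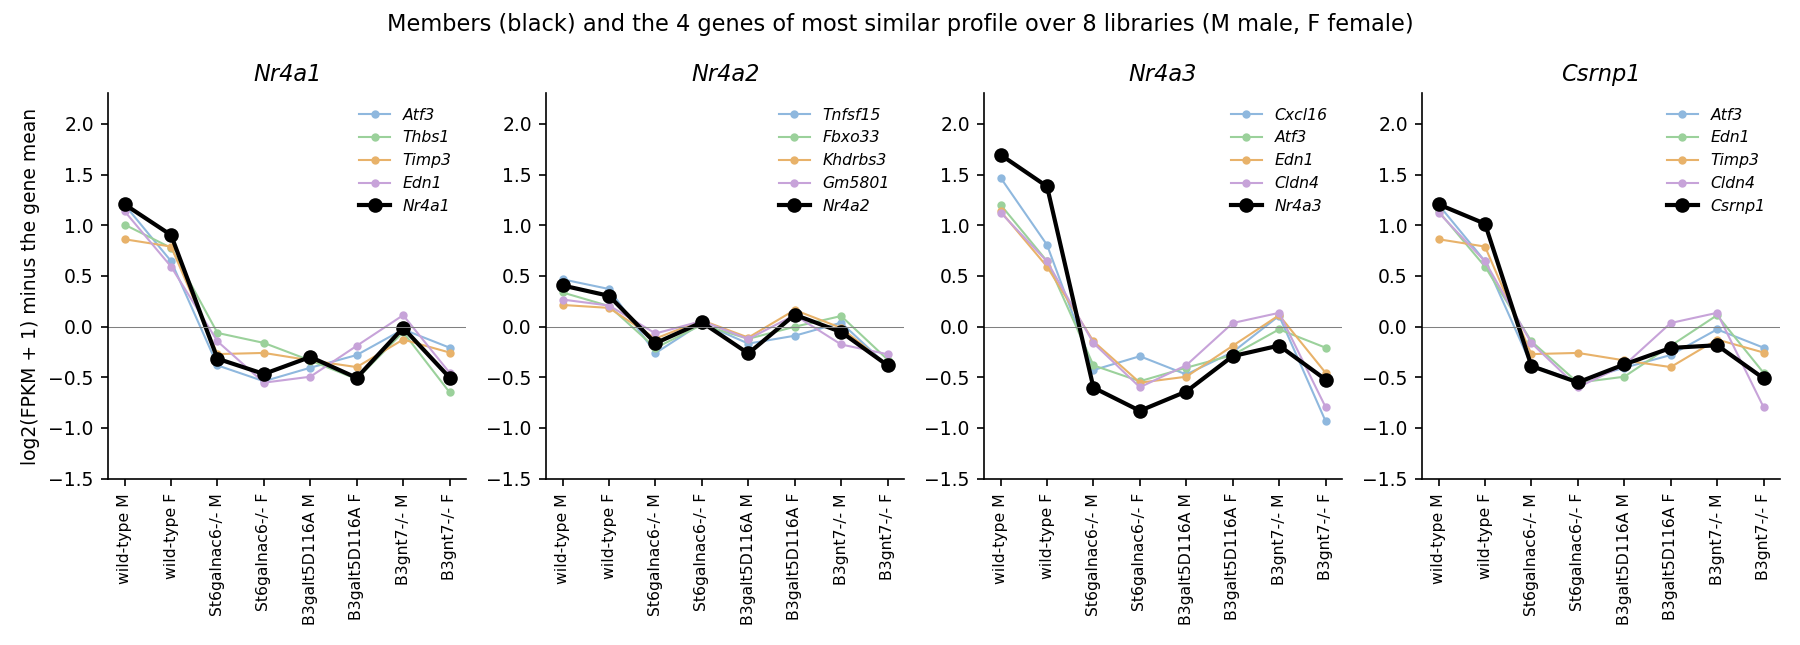
Deviation from the gene's own mean, in log2(FPKM + 1), of each member (black) and its 4 nearest other genes in the 8 libraries, where lines only join the points of a gene. The wild-type libraries are the highest for every member. Nr4a3 starts highest, while Nr4a2 and its neighbours stay within a narrow band.

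The genes beside the members on the chromosome were looked up after the members' values were seen. In any contrast with wild-type limma called 0 of 8, where 0.0867% (St6galnac6-/-), 0.078% (B3galt5D116A) and 0.052% (B3gnt7-/-) of all genes were called. At such shares a count of 0 among 8 genes says little about them. Atg101, an autophagy gene 9.5 kb from Nr4a1, was at 50.7 and 40.4 FPKM for wild-type and 36.3 to 49.2 FPKM in the mutants, which overlap. Grasp, 21.5 kb away on the other side, was at 6.15 and 6.06 FPKM for wild-type and 3.61 to 5.62 FPKM in the mutants (limma adjusted p = 0.395 or more). Stx17, 38.5 kb from Nr4a3, Gorasp1, 33.6 kb from Csrnp1, and Gpd2, 114 kb from Nr4a2, each had overlapping groups. Rprm, the nearest tested gene on the other side of Nr4a2 and 3021.3 kb away, was at 1.07 and 0.780 FPKM for wild-type, below the 1.11 to 2.50 FPKM of the mutants (limma adjusted p = 0.413 or more). Both wild-type libraries above all 6 mutant libraries, as for Grasp, held for 8.32% of all genes, and the reverse, as for Rprm, for 7.23%. In the 3 contrasts with wild-type, the nearest tested genes on both sides of the 4 members had limma adjusted p = 0.395 or more.

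Other immediate early and primary response genes were mostly at lower levels in the mutants, as the members were. This list, like those below, was drawn up with earlier results of these data known, so its counts against wild-type are a description. Of 59 listed, 53 were tested, and 29 (54.7%) had both wild-type libraries above all 6 mutant libraries, against 8.32% of all genes, while 0 had them below (7.23%). Without the B3gnt7-/- female library, a count added after seeing the data, it was 33 above and 3 below, against 12.4% and 13% of all genes. Their median log2 difference was -0.42, -0.48 and -0.45 in St6galnac6-/-, B3galt5D116A and B3gnt7-/-. Against single mutants limma called 0 of the 53 in each contrast, where 0.0867%, 0.078% and 0.052% of all genes were called. At an unadjusted p under 0.05 there were 26, 27 and 28 lower and 2, 1 and 0 higher, where 9.04%, 11.7% and 7.17% of all genes passed in either direction.

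In the mean of the 3 mutants minus wild-type, limma called 4 of these 53 lower and 0 higher, against 0.139% of all genes lower. They were the AP-1 subunit Fosb, Atf3, the small Maf factor Mafk and the salt-inducible kinase Sik1. Atf3 was at 1278 and 869 FPKM for wild-type and 382 to 545 FPKM in the mutants (log2 -1.23, SE 0.15, limma adjusted p = 0.0470). Fosb was at 401 and 352 FPKM for wild-type and 148 to 246 FPKM in the mutants (log2 -1.05, adjusted p = 0.0470). Sik1 was at 16.9 and 17.9 FPKM against 7.996 to 10.4 FPKM (log2 -0.84, adjusted p = 0.0499), and Mafk at 107 and 79.4 FPKM against 42.2 to 56.3 FPKM (log2 -0.93, adjusted p = 0.0499). For each of the 4 genes both wild-type values lay above all mutant values. Without the wild-type male or the wild-type female library 0 of the 53 were called, and also without either St6galnac6-/- library or the B3galt5D116A male. It was 1 without the B3galt5D116A female, 4 without the B3gnt7-/- female and 10 without the B3gnt7-/- male.

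Of 15 genes listed as induced by cAMP through CREB, 13 were tested. Fosb and Sik1 were called lower in the mean of mutants, against 0.139% of all genes. Both are among the immediate early genes called above, so they are no separate result. In each single mutant limma called 0 of the 13, where 0.0867%, 0.078% and 0.052% of all genes were called. Crem, whose inducible form is a repressor of CREB targets, was at 14.9 and 7.98 FPKM for wild-type and 3.62 to 6.27 FPKM in the mutants, without passing (log2 -1.04, limma adjusted p = 0.153). Pde4b, a phosphodiesterase that breaks down cAMP, had the opposite order, at 1.04 and 0.807 FPKM in wild-type and 1.47 to 2.36 FPKM in the mutants (log2 0.64, limma adjusted p = 0.228). The medians of the list were -0.20, -0.51 and -0.10 in the 3 mutants.

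The kinases, coactivators and factors upstream had smaller differences. Of 37 tested, 0 were called by limma in any of the 3 contrasts or in their mean, where at most 0.182% of all genes were called. At an unadjusted p under 0.05 in the mean, 4 were lower and 0 higher, a share near the 11.3% of all genes that passed so in either direction. The lowest p were those of Srf, the factor that binds CArG boxes, at 48.1 and 40.1 FPKM in wild-type and 24.5 to 29.9 FPKM in the mutants (log2 -0.67, adjusted p = 0.1197), and Crem. The deacetylase Hdac5 (log2 -0.50) and the factor Mef2a (log2 -0.29) followed, with adjusted p = 0.232 and 0.350. Median log2 differences of the list were -0.04, -0.12 and -0.06. Among 13 tested partners and cofactors, limma also called 0 in the mean of mutants, against 0.182% of all genes. At an unadjusted p under 0.05 it was 0 as well, against 11.3% of all genes. Counts of 0 among 13 genes say little at these shares. Rxra, the dimer partner, was at 25.5 FPKM in wild-type and 23.5 FPKM in the mutants on average (log2 -0.11, adjusted p = 0.701). Bcl2, an apoptosis regulator that Nr4a1 protein binds at mitochondria in human cells, was at 1.69 and 1.68 FPKM for wild-type and 2.09 to 3.75 FPKM in the mutants (log2 0.40, adjusted p = 0.443). Of the Csrnp family, Csrnp2 was between 2.06 and 2.50 FPKM in all libraries (log2 -0.06, adjusted p = 0.893), and Csrnp3 was listed at 0 throughout.

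Of 45 other nuclear receptor genes, 32 were tested. In each contrast with wild-type and in the mean of mutants limma called 0, where at most 0.182% of all genes were called. At such shares a count of 0 among 32 genes says little. At an unadjusted p under 0.05 in the mean of mutants, 5 were lower and 0 higher, against the 11.3% of all genes. Both wild-type libraries lay above all 6 mutant libraries for 7 of the 32 (21.9%), against 8.32% of all genes. The reverse order held for 0, against 7.23%. Of the 32 differences in the mean of mutants, 26 were negative and 6 positive. The list medians were -0.17, -0.12 and -0.10. The lowest p were those of the thyroid hormone receptor Thra (log2 -0.37, adjusted p = 0.219), the clock repressor Nr1d1 (log2 -0.63, adjusted p = 0.237), the xenobiotic receptor Nr1i3 (log2 -0.77, adjusted p = 0.247) and Esrrg (log2 -0.53, adjusted p = 0.350). Nr1d1 was at 77.5 and 79.6 FPKM for wild-type and 36.4 to 67.3 FPKM in the mutants.

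**Figure D5:**
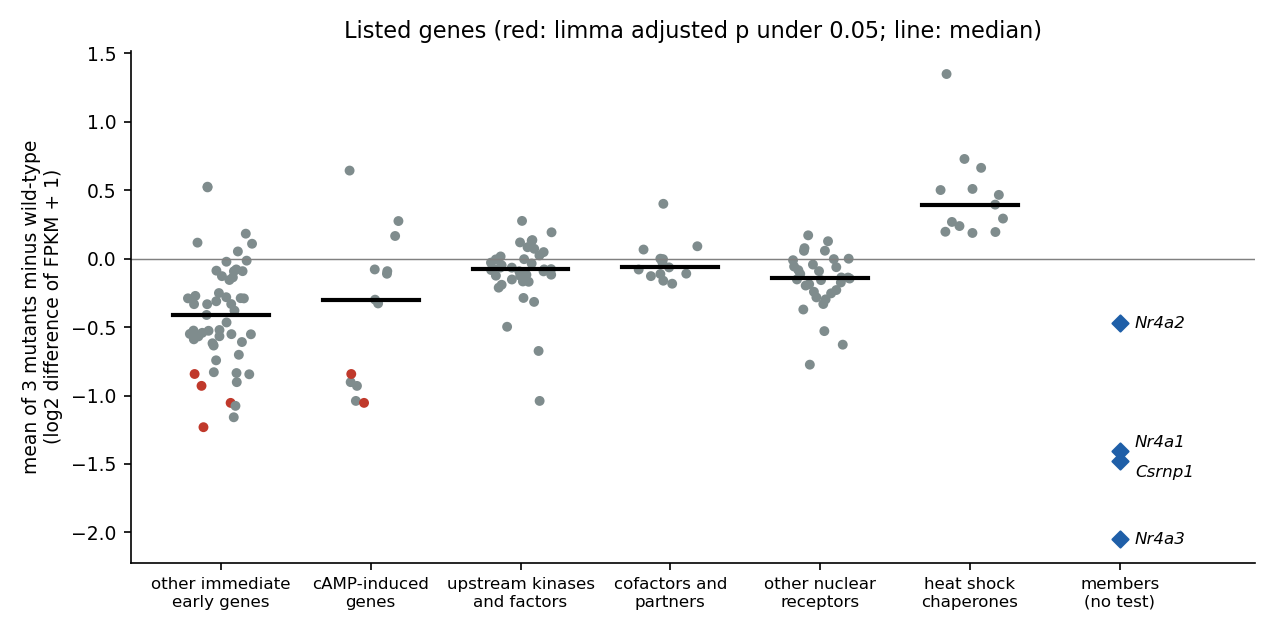
Mean of the 3 mutants minus wild-type, in log2(FPKM + 1), for genes of each list (points), with the list median as a line and genes called by limma in red. Members, not tested here, are the diamonds at the right. The medians are -0.41 for other immediate early genes, -0.08 for upstream genes, -0.14 for other nuclear receptors and 0.40 for heat shock chaperones.

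Heat shock chaperones, another class of rapidly induced genes, had higher levels than wild-type in all mutant libraries but 1, the B3gnt7-/- female. Their summed level was 3751 and 4346 FPKM in wild-type, 5842 to 6396 FPKM in 5 mutant libraries and 2360 FPKM in the B3gnt7-/- female. That library was set apart partly by its low chaperone levels, so a count without it, made after seeing the data, follows in part from that choice. Without that library 13 of 13 had both wild-type values below all mutant values, against 13% of all genes. With it the count was 0 of 13 chaperones, against 7.23%. None was called by limma in the mean of mutants, against 0.182% of all genes, and 0 had an unadjusted p under 0.05, against 11.3%. Hspb1, a small chaperone, was at 8.54 and 16.1 FPKM for wild-type, 43.0 to 57.3 FPKM in 5 mutant libraries and 3.002 FPKM in the B3gnt7-/- female. Nr4a1 and Csrnp1 in that library were at 108 and 11.2 FPKM, inside the range of the other mutant libraries. Nr4a2 in that library, at 3.63 FPKM, was the lowest of the 6 mutant values. Between sexes, 13 of 13 chaperones were higher in the male in B3gnt7-/-, but 1 of 13 in wild-type, 3 in St6galnac6-/- and 5 in B3galt5D116A. Over all genes tested the shares were 52.3%, 52.3%, 49.4% and 50.5% in the same order. The B3gnt7-/- count follows in part from the low chaperone levels that set its female library apart, and is not read as a difference between sexes.

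Markers of other cell types were low. The 15 myeloid markers, of which 14 were in the tables, summed to 23.3 and 25.7 FPKM in wild-type and 26.1 to 35.8 FPKM in the mutants. The highest was Cd14 (19.1 to 27.5 FPKM), S100a8 was at 0 in every library and the macrophage receptor Csf1r was at 0.191 FPKM or less. The 12 T cell and intraepithelial lymphocyte markers summed to 13.4 and 17.0 FPKM in wild-type and 11.8 to 26.4 FPKM in the mutants. B and plasma cell markers summed to 0.922 FPKM or less, endothelial markers to 1.91 FPKM or less, with Emcn at 0 throughout, and enteric neuron and glia markers to 1.28 FPKM or less, with Sox10 at 0 throughout. The summed myeloid markers, and the summed neuron and glia markers (0.894 and 0.927 FPKM in wild-type, 1.04 to 1.28 FPKM in the mutants), were lower in both wild-type libraries than in all mutant libraries. None of these sums had the reverse order, which the members had. Most of each myeloid sum was Cd14, at 19.1 and 19.5 FPKM in wild-type and 21.2 to 27.5 FPKM in the mutants. The other myeloid markers, such as Cd68 and Lyz2, did not have both wild-type libraries below all mutant libraries. Each neuron and glia marker was at 0.723 FPKM or less, near the floor. The part of other cells, of depth and of the wider immediate early response in the members' differences was not tested.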

How the data were processed

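Expression was deposited by the authors as FPKM for 24346 gene symbols in a table for each of 8 libraries, per the file headers. Cuffdiff 2.2.1, SAMtools 0.1.18, Bowtie2 2.2.8, TopHat2 2.1.1 and the build mm10 are named in the submitters' processing notes. The annotation, the strand setting and the scaling between libraries are not given in the sources used here. Libraries were made with a stranded mRNA kit, per the labels' protocols. Depth relative to the wild-type male library was read from the most frequent ratio of values under 0.15 FPKM, over 740 to 907 genes per library.

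A pseudocount of 1 FPKM was added and log2 taken. Genes averaging 1 FPKM or more, 11537 in number, went into limma 3.58.1 (R 4.3.3, eBayes with trend) in a single additive model of genotype and sex (3 residual and 4.02 prior degrees of freedom), two-sided, with Benjamini-Hochberg adjustment over all genes of a contrast and a threshold of 0.05. The fit was tested on simulated data. Figures were drawn with matplotlib 3.10.9. Promoter sequences are from RefSeq (GRCm38.p6), gene positions from GENCODE M21.

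The members and lists were chosen with earlier results of these data known. Besides the members, the text names list genes called in a mutant or with the 4 smallest p in the mean of mutants, the 4 nearest profiles, leading or absent markers, and the targeted genes; chromosomal neighbours and the values that set the B3gnt7-/- female library apart were added later. Alternatives were pseudocounts of 0.1 and 5, quantile normalization, median centring, no filter, a filter at a mean of 5 FPKM, no sex term, only the genotypes compared, and each library left out.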

Additional observations from a re-analysis of the deposited data

How the results depend on the processing

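Depth is unknown, so counting error could not be separated from other spread, and with 2 libraries a genotype 1 library can decide a value. Against wild-type, each of the 12 differences of the members stayed negative in 12 of 12 alternatives. Nr4a3 ranged from -3.11 to -0.99, its ends set by the pseudocounts of 0.1 and 5, and Nr4a2 from -0.82 to -0.20, its ends set by leaving out a library. The other members ranged from -1.65 to -1.18. Scaling moved the median of all genes by 0.03 or less on the log2 scale.

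The count of genes called in St6galnac6-/- against wild-type was 10. It became 5 with quantile normalization, 0 with no filter, 23 with no sex term, 49 with only the genotypes compared, and 2 to 31 with each library left out. For B3galt5D116A the count of 9 became 1 with no filter, 16 with no sex term, and 3 to 13 with each library left out. For B3gnt7-/- the count of 6 became 2 with no filter, 3 with a mean of at least 5 FPKM, and 3 to 36 with each library left out. No paired analysis was possible because the labels give no replicate numbers, and sex is a term of the model.

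Between mutants and sexes no difference of a member passed in any alternative, with a smallest adjusted p of 0.328, and 22 values changed sign against 222 that did not. With median centring, St6galnac6-/- minus B3galt5D116A became -0.015 for Nr4a1 and -0.012 for Nr4a2, and with quantile normalization -0.022 for Nr4a2. The rest changed sign with a library left out, and their ranges were as follows. St6galnac6-/- minus B3galt5D116A ran from -0.081 to 0.10 for Nr4a1, from -0.22 to 0.24 for Nr4a2, from -0.57 to 0.070 for Nr4a3 and from -0.37 to 0.017 for Csrnp1. St6galnac6-/- minus B3gnt7-/- ran from -0.27 to 0.0012 for Nr4a1, from -0.088 to 0.40 for Nr4a2 and from -0.25 to 0.0086 for Csrnp1. B3galt5D116A minus B3gnt7-/- ran from -0.10 to 0.39 for Nr4a2, from -0.43 to 0.21 for Nr4a3 and from -0.14 to 0.25 for Csrnp1. Male minus female ran from -0.16 to 0.075 for Nr4a2, while over all alternatives that of Nr4a1 stayed between 0.22 and 0.33. The cause was not tested.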
